A study of Rattus norvegicus with 9 samples.

Results

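Collagen chains are encoded by a large gene family, and the deposited table of 19085 rat genes holds 44 of its members, taken here as every gene whose symbol is Col followed by a type number, the letter a and a chain number. Of these 44 genes, 33 passed the filter on low counts and were tested, and 11 did not and are given by their counts. They were described by collagen class in primary rat osteoblasts, the bone-forming cells, sequenced in 3 groups of 3 libraries. The cells had been digested out of calvarial bone of newborn male rats (Sprague-Dawley, 24 hours old), although the sample labels name the knee as the tissue, and all groups were kept in osteogenic induction medium for 7 days. The control group received that medium alone, the thrombin group also received the clotting protease thrombin at 20 U/mL, and the PD03 group had the same dose of thrombin plus the MEK inhibitor PD0325901 (PD03), at 0.1 μM by the paper's account and 0.1 mM by a protocol in the labels. No group with PD03 in the absence of thrombin was analysed here, so the PD03 group was compared with thrombin and with control. The study describes its replicates as independent samples, and nothing in the sources used here ties a library to an animal.

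Collagens are trimers of chains wound into a triple helix. Fibrillar collagens (types I, II, III, V, XI, XXIV and XXVII) pack into the fibrils that carry load, and type I is the main protein of bone matrix. Fibril-associated collagens sit on the fibril surface, type IV forms the sheet of basement membranes, type VI forms beaded filaments around cells, and types VIII and X form short-chain networks. Type VII makes the anchoring fibrils beneath epithelia, types XIII, XVII, XXIII and XXV span the plasma membrane, and types XV and XVIII, the multiplexins, lie in or near basement membranes.

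Promoter windows from RefSeq (GRCr8, 250 bases before to 50 after the annotated start of the gene) were found for 35 of the 44 genes. This build is newer than those named for the deposited table. The windows of 4 genes are shown because their transcripts stand for the main patterns described here: Col1a2 (ENSRNOG00000011292) for the abundant fibrillar chains, Col6a1 (ENSRNOG00000001249) for a chain lower with thrombin, Col7a1 (ENSRNOG00000020579) for the chain higher with thrombin, and Col4a1 (ENSRNOG00000016281), which shares its start region with Col4a2. Each is printed 5′ to 3′ on the strand of the gene, with capitals marking every match, on either strand, to 4 motifs. These were TATAAA for the TATA box and CCAAT for the box of that name. The GC box was searched as GGGCGG and the AP-1 motif as TGANTCA.
Col1a2, chr4:33518307-33518606, plus strand: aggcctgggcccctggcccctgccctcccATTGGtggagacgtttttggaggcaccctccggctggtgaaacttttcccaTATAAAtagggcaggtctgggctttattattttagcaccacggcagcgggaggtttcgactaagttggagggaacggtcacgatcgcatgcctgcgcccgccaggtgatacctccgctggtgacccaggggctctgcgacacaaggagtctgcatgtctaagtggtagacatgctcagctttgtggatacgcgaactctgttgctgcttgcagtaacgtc
Col6a1, chr20:11905440-11905739, plus strand: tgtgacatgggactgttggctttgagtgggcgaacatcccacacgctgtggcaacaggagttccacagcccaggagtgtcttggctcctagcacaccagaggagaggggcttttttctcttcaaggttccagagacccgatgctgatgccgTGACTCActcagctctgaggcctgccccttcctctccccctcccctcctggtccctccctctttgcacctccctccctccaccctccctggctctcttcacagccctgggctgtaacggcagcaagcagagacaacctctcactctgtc
Col7a1, chr8:118483114-118483413, plus strand: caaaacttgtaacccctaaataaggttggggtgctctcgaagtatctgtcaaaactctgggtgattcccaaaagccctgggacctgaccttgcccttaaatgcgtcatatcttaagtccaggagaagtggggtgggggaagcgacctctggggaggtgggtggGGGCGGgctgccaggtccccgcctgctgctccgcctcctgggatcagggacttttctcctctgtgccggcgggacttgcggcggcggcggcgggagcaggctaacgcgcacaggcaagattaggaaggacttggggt
Col4a1, chr16:84885347-84885646, plus strand: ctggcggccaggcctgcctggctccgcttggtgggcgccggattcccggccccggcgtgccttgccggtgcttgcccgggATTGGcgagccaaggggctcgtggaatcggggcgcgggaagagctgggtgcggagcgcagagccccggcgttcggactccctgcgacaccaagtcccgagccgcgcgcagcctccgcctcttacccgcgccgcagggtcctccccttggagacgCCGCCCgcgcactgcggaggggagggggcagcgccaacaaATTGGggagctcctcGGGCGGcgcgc
Positions count the annotated start as 1 and the base before it as -1. That start was not shown to be the start of transcription. In the Col1a2 window the letters from 1 open with atg, the start codon, so distances there may not be from the transcription start. The Col1a2 window held TATAAA from -170 and CCAAT on the other strand from -221. Col6a1 held TGANTCA from -99, and Col7a1 held GGGCGG from -87. Col4a1 held CCAAT on the other strand from -170 and from 25, and GGGCGG from -16 on the other strand and from 40. Among the 35 collagen genes, GGGCGG was found in 19 (54.3%), against 33.1% of all 33469 windows of this length in the table. TGANTCA was found in 1 collagen gene, Col6a1 (2.86%), against 7.33% of all windows, CCAAT in 11 (31.4%) against 37.5%, and TATAAA in 4 (11.4%) against 14.2%. The Col4a1 and Col4a2 starts lay 77 bases apart on opposite strands, so their windows overlapped by 176 bases. Col4a3 and Col4a4 had starts 413 bases apart and Col4a5 and Col4a6 had starts 1415 bases apart, also on opposite strands. These matches are descriptions of the letters in a window and were not tied to the measurements.

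The libraries held 15447832 to 19841468 counts each. The 5 feedback genes of the ERK pathway listed as a check on the inhibitor were Dusp6, Spry2, Spry4, Etv4 and Etv5. All were called lower in PD03 against thrombin and against control, where 6.31% and 4.07% of all tested genes were called lower. Their summed levels were 153 to 179 CPM in the control libraries, 121 to 145 CPM in thrombin and 57.1 to 60.6 CPM in PD03. The thrombin sum thus lay below control, although none was called in thrombin against control. The log2 fold changes there were -0.40 ± 0.09 for Dusp6, -0.31 ± 0.07 for Spry2 and -0.52 ± 0.09 for Etv5. They were -0.26 ± 0.11 for Spry4 and 0.04 ± 0.11 for Etv4. CPM here is the count scaled to a library size corrected by TMM for differences in composition. Of the osteoblast markers, Runx2 stood at 42.8 CPM and Sparc at 5466 CPM in control, but the late markers Bglap, Ibsp and Dmp1 had at most 5 counts in any library and Alpl stood at 1.67 CPM in control. Of the 7 tested, thrombin against control called Spp1 higher (log2 fold change 1.54 ± 0.05) and the scarce Alpl lower (-2.24 ± 0.42). By amounts too small to be called, Runx2 (0.26 ± 0.07) and Sp7 (0.53 ± 0.18) were higher with thrombin and Sparc (-0.12 ± 0.03) was lower. PD03 against thrombin called Alpl (3.14 ± 0.38) and Sparc (0.69 ± 0.03) higher and Runx2 (-0.67 ± 0.07) and Spp1 (-1.80 ± 0.05) lower. PD03 against control called only Alpl, higher. Fewer cells of a type and less RNA per cell cannot be told apart in such bulk samples.

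Collagen transcripts made up 9.48% to 10.1% of all counts in the control libraries, 8.52% to 8.88% in the thrombin libraries and 13.4% to 13.6% in the PD03 libraries, with no overlap between groups. Per length, as summed FPKM (fragments scaled by gene length and library total), the 44 genes reached 17385 ± 565 (SD, n = 3) in control, 15288 ± 337 in thrombin and 23438 ± 239.6 in PD03. Fibrillar chains dominated this total, with 88.4% to 88.7% in the control libraries, 88.5% to 88.8% in the thrombin libraries and 90.1% to 90.4% in the PD03 libraries. Col1a1, the α1 chain of type I collagen, was the highest collagen gene in control at 8391 ± 407 FPKM, ahead of Col1a2 at 3708 ± 73.0 and Col3a1 at 2282 ± 34.7. Col5a2 (516 ± 8.98 FPKM), Col4a1 (431 ± 6.17), Col5a1 (390.2 ± 12.4), Col12a1 (328 ± 4.99), Col4a2 (299 ± 11.3), Col6a1 (248 ± 4.90) and Col6a2 (203 ± 6.08) followed in that order. Neighbours in this order differed by more than their SDs, whereas the tested genes at the bottom, from Col20a1 (0.164 ± 0.0316 FPKM) down to Col6a6 (0.0727 ± 0.00353 FPKM), rested on few reads.

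**Figure D1:**
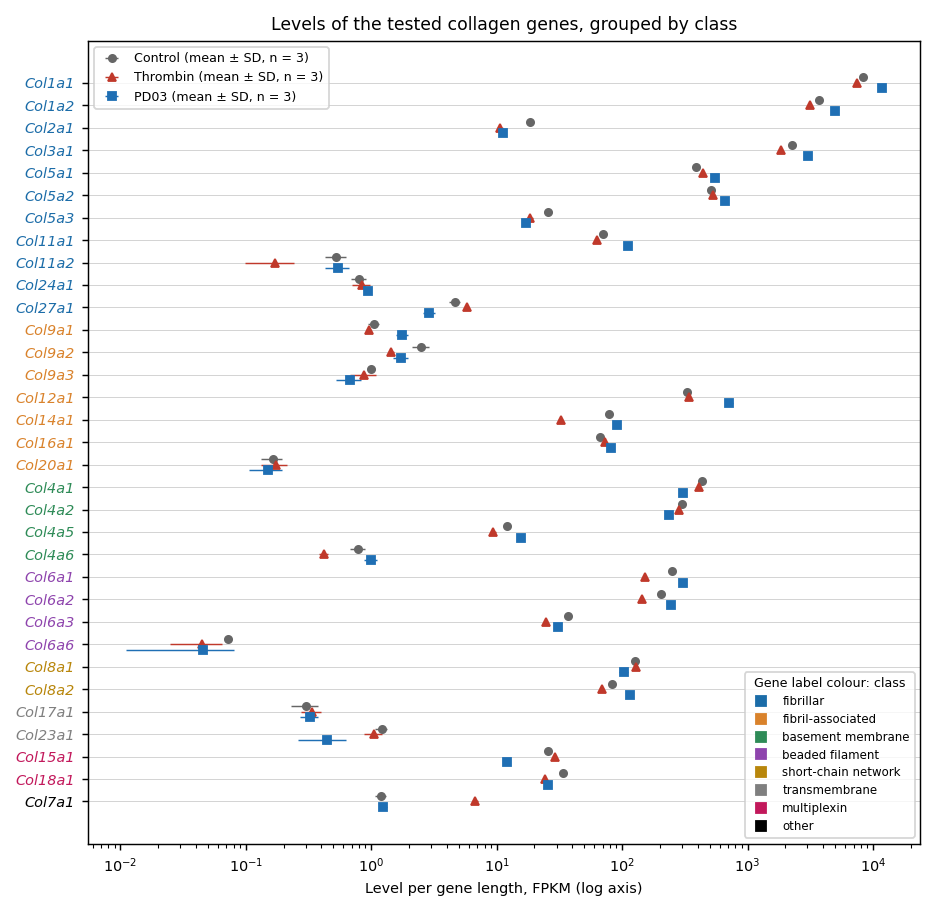
Mean level of the 33 tested collagen genes in the control, thrombin and PD03 groups, in FPKM on a log axis, grouped by class; points are means and bars are SDs over 3 libraries. Levels run from 8391 FPKM for Col1a1 to 0.0727 FPKM for Col6a6 in the control group, and the point for Col7a1 in the thrombin group stands apart from its other 2.

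The classes differed in the order of the groups. Summed fibrillar FPKM was 15406 ± 536 in control, 13555 ± 325 in thrombin and 21147 ± 255 in PD03, and the libraries of the 3 groups did not overlap. Fibril-associated chains summed to 477 ± 4.93, 452 ± 8.52 and 891 ± 50.9 FPKM in the same order, and the beaded-filament chains of type VI to 488 ± 10.4, 322 ± 5.67 and 583 ± 19.8 FPKM. In both of these classes thrombin was the lowest group and PD03 the highest. Basement membrane chains were lowest with PD03, at 743 ± 17.7 FPKM in control, 700 ± 10.8 in thrombin and 558 ± 9.05 in PD03, as were the multiplexins, at 59.7 ± 1.06, 53.5 ± 0.386 and 37.7 ± 1.65 FPKM. Type IV chains therefore held 4.25% to 4.32% of summed collagen FPKM in the control libraries, 4.51% to 4.63% in the thrombin libraries and 2.35% to 2.40% in the PD03 libraries. Short-chain network genes summed to 209 ± 1.19, 198 ± 2.00 and 218 ± 3.60 FPKM and so differed little between groups. Transmembrane chains summed to 1.72 ± 0.192, 1.52 ± 0.104 and 0.855 ± 0.149 FPKM, and the PD03 libraries lay below the other 6. These sums are descriptions and were not tested.

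**Figure D2:**
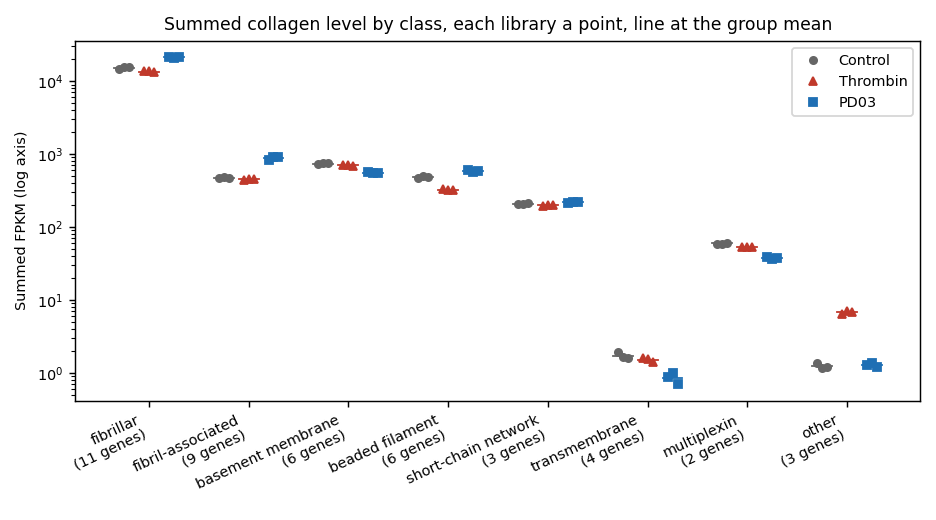
Summed FPKM of each collagen class in each of the 9 libraries, on a log axis, with 1 point per library. Fibrillar chains lie between 13183 and 21406 FPKM in every library, and the class of type VII, XXVI and XXVIII chains lies at 6.32 to 7.01 FPKM with thrombin against at most 1.38 FPKM elsewhere.

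The first comparison asked what thrombin does to collagen transcripts during osteogenic induction. With thrombin, 6 of the 33 tested collagen genes fell (Col2a1, Col11a2, Col9a2, Col14a1, Col4a6 and Col6a1) and 1, Col7a1, rose. A gene was called here when edgeR's quasi-likelihood test gave a Benjamini-Hochberg adjusted p under 0.05 and its log2 fold change lay beyond 0.58 in either direction. The share called was 21.2% of tested collagens, against 8.06% of all 13256 tested genes. Of all tested genes 2.62% were called higher and 5.44% lower. The median log2 fold change was -0.18 over the tested collagens and -0.01 over all tested genes. Without the fold threshold, 5 collagens were higher and 16 lower, and 3808 of all 13256 tested genes were called in either direction.

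The second comparison asked what MEK inhibition does in the presence of thrombin. In PD03 against thrombin, 13 of the 33 tested collagens rose and 4 fell, which is 51.5% of them, against 15.9% of all tested genes (9.61% higher and 6.31% lower). The 13 were Col1a1, Col1a2, Col3a1, Col11a1, Col11a2, Col9a1, Col12a1, Col14a1, Col4a5, Col4a6, Col6a1, Col6a2 and Col8a2, and the 4 were Col27a1, Col23a1, Col15a1 and Col7a1. The median was 0.36 over the collagens and 0.01 over all tested genes.

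The third comparison set the PD03 group against control and so shows where the inhibited cells stood relative to untreated ones. It called 6 collagens higher (Col1a1, Col5a1, Col11a1, Col9a1, Col12a1 and Col8a2) and 3 lower (Col2a1, Col23a1 and Col15a1), or 27.3%, against 8.97% of all tested genes (4.9% higher and 4.07% lower). The median was 0.19 over the collagens and 0.00 over all tested genes. This count depended on the scaling: with library totals in place of TMM, 3 were higher and 5 lower, and the median of all genes then stood at -0.12. Col1a1, Col5a1 and Col8a2 lay just past the fold threshold and were no longer called with library totals or without Control replicate 1, which left 3 higher. Col8a2 was also lost without Control replicate 3 and without PD03 replicate 1. Without 1 library, the calls of Col27a1 and Col4a6 also changed, Col27a1 being called lower without Control replicate 1, Control replicate 3 or PD03 replicate 1 and Col4a6 higher without Control replicate 2. The 3 comparisons share libraries pairwise, so the values of a gene in them are given side by side and are not independent.

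**Figure D3:**
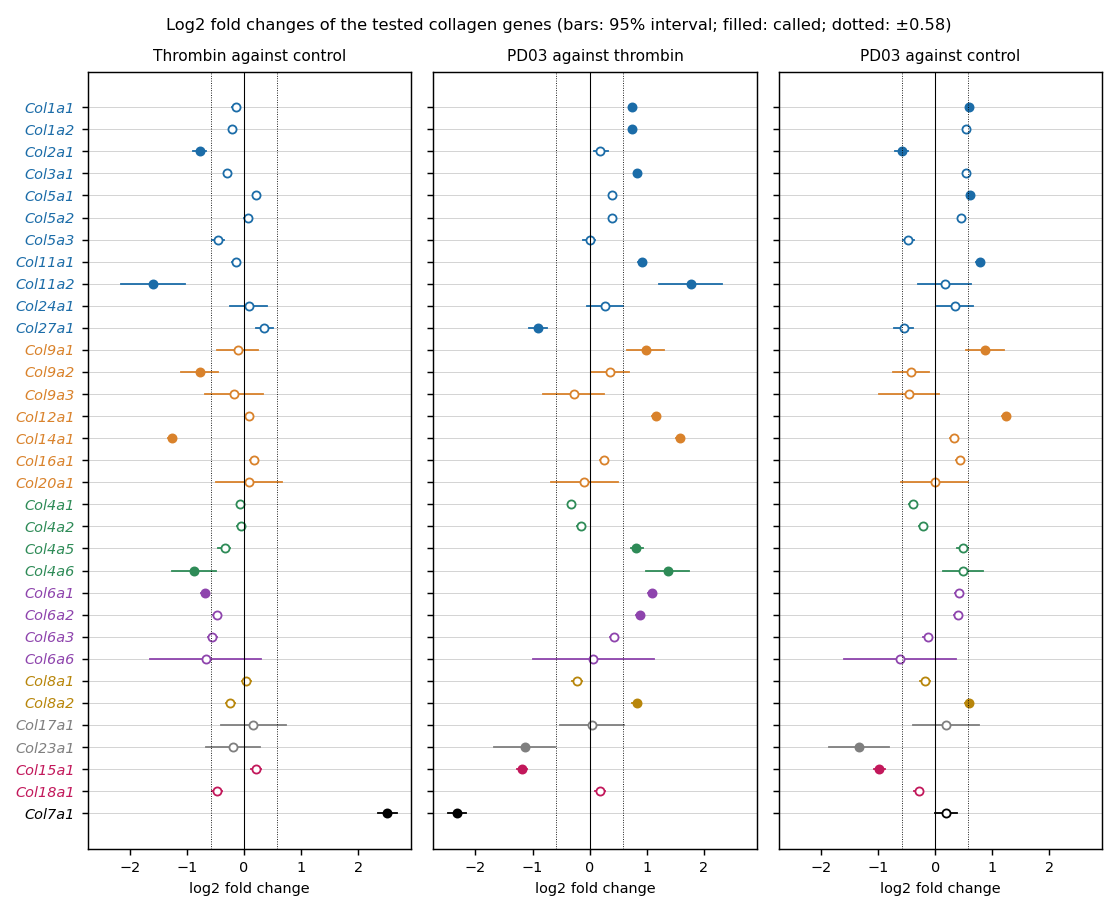
Log2 fold change of the 33 tested collagen genes in the 3 comparisons, with 95% intervals from the edgeR quasi-likelihood fit; filled points passed both thresholds and dotted lines mark 0.58 in each direction. Col7a1 is the extreme point in the first panel at 2.51 and in the second at -2.32, while most genes in the second panel lie to the right of 0.

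Among the fibrillar class (11 genes, all tested), the type I and type III chains that make up the bulk of the fibrils were lower with thrombin only by amounts under the fold threshold and higher with PD03. Col1a1 stood at 44303, 49269 and 48758 CPM in the control libraries, 44504, 42954 and 41103 CPM in thrombin and 73137, 71159.5 and 72099 CPM in PD03. All PD03 libraries lay above the other 6, whereas thrombin and control overlapped. The log2 fold change was -0.15 ± 0.03 (SE; adjusted p = 1.0e-04) with thrombin against control. It was 0.75 ± 0.03 (1.9e-24) with PD03 against thrombin and 0.60 ± 0.03 (7.2e-21) with PD03 against control. Col1a2, the α2 chain of type I, was at 16303, 17125 and 17173 CPM in control, 14306, 14763 and 14481 CPM in thrombin and 25024, 23864 and 24597 CPM in PD03. Its groups did not overlap, and its log2 fold changes in the 3 comparisons, given in that order here and below, were -0.22 ± 0.03, 0.75 ± 0.03 and 0.54 ± 0.03. Col3a1, whose product co-assembles with type I in soft tissue, was at 10311, 10799 and 10686 CPM in control, 8458, 8870.1 and 8514 CPM in thrombin and 15303, 15283 and 15490 CPM in PD03. Again the 3 groups were apart, with log2 fold changes of -0.30 ± 0.03, 0.83 ± 0.03 and 0.54 ± 0.03.

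Type V chains, which set fibril diameter, differed among themselves with thrombin. Col5a1 was at 2510.4, 2687 and 2706 CPM in control, 3051, 3049.9 and 3020.1 CPM in thrombin and 4063, 3927 and 4064 CPM in PD03. It stepped up from group to group without overlap, by log2 fold changes of 0.21 ± 0.03 (thrombin against control, adjusted p = 4.3e-07, under the fold threshold) and 0.61 ± 0.03 (PD03 against control, adjusted p = 1.5e-20). Col5a2 was at 2995, 3111 and 3152 CPM in control, 3142, 3296 and 3218 CPM in thrombin and 4195, 4298 and 4283 CPM in PD03. Thrombin and control overlapped for Col5a2, at a log2 fold change of 0.06 ± 0.03 (adjusted p = 0.12), and the PD03 libraries were highest, at 0.40 ± 0.03 against thrombin and 0.46 ± 0.03 against control, under the fold threshold. Col5a3 stood at 0.725 (thrombin) and 0.723 (PD03) times its control level, under the fold threshold, and the 95% interval between PD03 and thrombin ran from -0.11 to 0.10 on the log2 scale.

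The cartilage-type fibrillar chains split. Col2a1, the chain of type II collagen, was at 78.8, 87.9 and 86.5 CPM in control, 46.6, 51.9 and 49.0 CPM in thrombin and 53.2, 59.3 and 56.7 CPM in PD03. Control was above both treated groups, with log2 fold changes of -0.78 ± 0.06 (adjusted p = 1.3e-14) in the first comparison and 0.19 ± 0.06 (0.0063) in the second. At -0.58 ± 0.06 for PD03 against control it only just passed the fold threshold and lost the call without Control replicate 2, without Control replicate 3 and without PD03 replicate 1. Col11a1, a chain of type XI that co-polymerizes with type II and is also made in bone, was at 511, 536 and 515 CPM in control, 465, 482 and 469 CPM in thrombin and 841, 921 and 920 CPM in PD03. The PD03 libraries were far above the rest, at 0.92 ± 0.04 against thrombin (adjusted p = 2.0e-24) and 0.78 ± 0.04 against control (1.5e-21). Col11a2, its partner chain, was scarce, at 3.37, 3.91 and 2.65 CPM in control, 1.19, 1.48 and 0.583 CPM in thrombin and 3.07, 3.50 and 4.65 CPM in PD03. Thrombin libraries were the lowest 3, by -1.60 ± 0.28 against control (adjusted p = 1.4e-05), and PD03 overlapped control. Col27a1, a fibrillar chain of cartilage, ran opposite to the class at 28.2, 34.0 and 29.1 CPM in control, 38.5, 38.5 and 39.3 CPM in thrombin and 23.1, 19.9 and 19.0 CPM in PD03. Its groups did not overlap, and PD03 against thrombin was -0.90 ± 0.08 (adjusted p = 7.5e-13). Col24a1 stayed between 4.42 and 6.93 CPM and was called in no comparison.

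Chondrocyte markers did not follow Col2a1 in every comparison. Of 9 listed markers 8 were in the table and 5 were tested, and their summed level was 14.3 to 16.3 CPM in control, 21.8 to 24.5 CPM in thrombin and 34.0 to 34.3 CPM in PD03. Against control, 3 were called higher with thrombin and 5 with PD03, among them the cartilage regulator Sox9, while Cnmd, Snorc and Ucma stayed under 1 CPM. Of all tested genes, 2.62% and 4.9% were called higher in these comparisons. With PD03, the edgeR calls of Acan (adjusted p = 0.038), Matn3 (0.039) and Hapln1 (0.038) passed narrowly. Hapln1 lay at the fold threshold (0.58 ± 0.23), and Acan and Matn3 had at most 24 and 35 counts in a PD03 library. Relative to control, both treated groups had a higher marker sum and lower Col2a1, but between them PD03 had the higher value of both. In PD03 against thrombin only Comp was called, at 3.45 ± 0.654 CPM in control, 2.44 ± 0.306 in thrombin and 11 ± 0.226 in PD03. The uncalled log2 fold changes there were -0.27 ± 0.34 for Acan, -0.45 ± 0.28 for Matn3, 0.18 ± 0.10 for Sox9 and 0.50 ± 0.22 for Hapln1. The part of such cells in these values was not tested.

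The fibril-associated class (9 genes in the table, 7 tested) held Col12a1 and Col14a1, whose fold changes in PD03 against thrombin exceeded those of the type I and type III chains. Col12a1, which coats type I fibrils in tendon, ligament and bone, was at 4549.9, 4682 and 4545 CPM in control, 4748, 4978 and 4839 CPM in thrombin and 9956, 11217 and 11336 CPM in PD03. The PD03 libraries lay far above the other 6, with log2 fold changes of 1.16 ± 0.03 against thrombin (adjusted p = 3.4e-29) and 1.24 ± 0.03 against control (2.4e-29). Thrombin against control was 0.08 ± 0.03 (0.064). Col14a1, its close relative, was at 538, 546 and 524 CPM in control, 231, 225 and 215 CPM in thrombin and 665, 666 and 691 CPM in PD03. Here thrombin was the low group, 2.40-fold below control (log2 fold change -1.26 ± 0.04, adjusted p = 1.5e-28), and PD03 was 3.01-fold above thrombin (1.59 ± 0.04, adjusted p = 1.0e-32). PD03 was also above control without overlap, at 0.33 ± 0.03, under the fold threshold. Col16a1 showed 0.17, 0.26 and 0.43 in the 3 comparisons, all under the threshold.

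Type IX chains, which decorate type II fibrils, were low. Col9a1 was at 3.86, 3.79 and 4.61 CPM in control, 3.57, 3.95 and 3.79 CPM in thrombin and 7.52, 8.29 and 6.61 CPM in PD03. The PD03 libraries were the highest 3, at 0.98 ± 0.16 against thrombin (adjusted p = 2.3e-06) and 0.87 ± 0.16 against control (2.5e-05). Col9a2 was at 7.78, 6.31 and 8.65 CPM in control, 4.16, 4.33 and 4.72 CPM in thrombin and 6.20, 4.73 and 5.94 CPM in PD03, with thrombin lowest at -0.78 ± 0.16 against control (adjusted p = 1.6e-04). Col9a3 and Col20a1 were called in no comparison, with intervals of -0.98 to 0.07 and -0.59 to 0.58 for PD03 against control. The tendon markers Scx, Tnmd, Mkx and Thbs4 summed to 59.4 to 62.8 CPM in control, 46.6 to 53.4 CPM in thrombin and 200.1 to 209 CPM in PD03. All 4 were called higher in PD03 against control, as were 4.9% of all tested genes. Tenomodulin (Tnmd) carried most of that sum, and Scx ran against it. With thrombin against control, Scx was called higher (log2 fold change 1.42 ± 0.14) and Tnmd lower (-0.89 ± 0.06). In PD03 against thrombin, Scx was called lower (-0.73 ± 0.13) and the other 3 higher. Neither the part of Tnmd nor that of tendon-like cells in the Col12a1, Col14a1 and fibrillar values was tested.

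Among the beaded-filament genes (6 in the table, 4 tested), Col6a1 and Col6a2 were lowest with thrombin and highest with PD03, and the others did not share this order. Col6a1 was at 1084, 1146 and 1121 CPM in control, 705, 683 and 704 CPM in thrombin and 1542, 1432 and 1505 CPM in PD03. The groups were apart, with log2 fold changes of -0.68 ± 0.03 (adjusted p = 1.1e-20), 1.10 ± 0.03 (2.1e-28) and 0.42 ± 0.03 (4.3e-14, under the fold threshold). Col6a2, whose gene neighbours Col6a1 in the RefSeq order, was at 1016, 1084 and 1092 CPM in control, 783, 757 and 749 CPM in thrombin and 1467, 1357 and 1382 CPM in PD03. It followed Col6a1 at a smaller size, with -0.48 ± 0.03 (under the threshold) in the first comparison and 0.88 ± 0.03 in the second. Col6a3, the longest chain of the type VI trimer, differed. It was at -0.56 ± 0.04 with thrombin, and PD03 brought it only to 359 ± 13.9 CPM, below the control level of 394 ± 5.67 CPM (-0.13 ± 0.04). Col6a6 was tested at under 1 CPM and gave wide intervals, -1.65 to 0.30 for thrombin against control.

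The 3 divergent pairs of basement membrane genes differed from each other. Col4a1 and Col4a2, which form the common type IV trimer, were at 2759 ± 65.2 and 2139 ± 99.8 CPM in control, 2635 ± 37.7 and 2052 ± 30.2 CPM in thrombin and 2109 ± 12.8 and 1845 ± 51.6 CPM in PD03. PD03 libraries were the lowest for both, at -0.39 ± 0.03 and -0.21 ± 0.03 against control, all under the fold threshold. Col4a5 and Col4a6, the X-linked pair, were highest with PD03. Col4a5 was at 72.3, 76.3 and 78.3 CPM in control, 57.2, 62.1 and 59.4 CPM in thrombin and 108, 105 and 104 CPM in PD03, with PD03 at 0.82 ± 0.05 above thrombin (adjusted p = 1.5e-17). Col4a6 was at 3.97, 5.30 and 4.67 CPM in control, 2.32, 2.47 and 2.74 CPM in thrombin and 7.05, 6.74 and 5.63 CPM in PD03. Its groups did not overlap, with -0.88 ± 0.19 for thrombin relative to control (adjusted p = 3.9e-04) and 1.37 ± 0.18 for PD03 relative to thrombin (3.8e-08). Col4a3 and Col4a4, the remaining pair, had at most 6 and 12 counts in any library and were not tested.

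Among the multiplexins, Col15a1 was lower with PD03. It stood at 133, 138 and 137 CPM in control, 153, 157 and 159 CPM in thrombin and 69.9, 65.9 and 71.4 CPM in PD03. All groups were apart, and PD03 was 2.27-fold below thrombin (log2 fold change -1.18 ± 0.05, adjusted p = 1.6e-24) and 1.97-fold below control (-0.98 ± 0.05, adjusted p = 4.1e-21). Col18a1, the precursor of endostatin, was lowest with thrombin at 165 ± 0.844 CPM against 229 ± 7.77 in control and 187 ± 9.64 in PD03, under the fold threshold throughout. Endothelial markers (6 of 8 listed in the table, 3 tested) summed to 26.2 to 29.7 CPM in control, 32.4 to 34.3 CPM in thrombin and 45.6 to 51.2 CPM in PD03, and Pecam1, Tie1 and Esam stayed under 1 CPM in every library. Smooth muscle and pericyte markers (6 in the table, 5 tested) summed to 58.5 to 63.0, 79.0 to 84.3 and 147 to 150.1 CPM, mostly Cnn1, with Rgs5 under 1 CPM. Both sums were thus highest in PD03, where Col4a1, Col4a2 and Col15a1 were lowest. Egfl7 held most of the endothelial sum, at 21 ± 1.31, 26.3 ± 1.35 and 35.6 ± 3.90 CPM in control, thrombin and PD03. PD03 against thrombin called Kdr and Tek higher. In the smooth muscle and pericyte list, Mcam was highest in thrombin, at 3.08, 4.85 and 3.81 CPM in the same order. Notch3 was highest in control, at 1.21, 0.515 and 1 CPM. The part of such cells in the collagen values was not tested.

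Short-chain network genes again split within a pair. Col8a2 was at 350.2, 375 and 359 CPM in control, 302, 315 and 303 CPM in thrombin and 567, 532 and 531 CPM in PD03. Its groups did not overlap, and the log2 fold changes were -0.24 ± 0.04, 0.83 ± 0.04 and 0.59 ± 0.04 (adjusted p = 3.3e-17 for the last). Col8a1 was lower in PD03, at 292 ± 22.6 CPM against 338 ± 3.60 in thrombin and 329 ± 8.16 in control (-0.18 ± 0.04 against control), under the fold threshold. Col10a1, the marker of hypertrophic cartilage, had 1 to 10 counts per library and was not tested. Of the transmembrane chains, Col23a1 was at 3.86, 3.16 and 3.41 CPM in control, 3.57, 3.02 and 2.56 CPM in thrombin and 1.59, 1.81 and 0.735 CPM in PD03. PD03 was lowest, by -1.14 ± 0.27 against thrombin (adjusted p = 3.8e-04) and -1.33 ± 0.26 against control (5.4e-05), at a low count. Col17a1, the hemidesmosome collagen of epithelia, was called in no comparison, with 1.26 to 2.26 CPM over the 9 libraries.

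Col7a1, the anchoring fibril chain, showed the largest log2 fold change with thrombin among the 33 tested collagens. It was at 11.6, 10.4 and 9.79 CPM in control, 57.1, 63.4 and 61.3 CPM in thrombin and 11.8, 13.1 and 11.6 CPM in PD03. The thrombin libraries stood alone, 5.69-fold above control (log2 fold change 2.51 ± 0.08, adjusted p = 8.4e-27), and PD03 was 5.00-fold below thrombin (-2.32 ± 0.08, adjusted p = 2.1e-26). PD03 and control overlapped, at 0.19 ± 0.10 (adjusted p = 0.14, 95% interval -0.01 to 0.39). The epithelial markers in the table, Krt5 and Cdh1, had summed levels of at most 0.324 CPM in any library.

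The 11 genes under the filter had few reads. Col6a5 had 2, 1 and 1 counts in control, 9, 11 and 16 in thrombin and 1, 3 and 5 in PD03, and Col19a1 had 0, 4 and 3 in control, 0, 0 and 1 in thrombin and 12, 3 and 4 in PD03. When the filter was dropped, Col6a5 was called higher with thrombin (adjusted p = 0.0018) and lower with PD03 (0.02), and Col19a1 higher in PD03 against thrombin (0.0082). Col6a5 was also called higher with thrombin when any single library except Thrombin replicate 2 or 3 was left out, and lower with PD03 when any except those or PD03 replicate 1 was. The counts are too few to read a size from them. The other 9 (Col22a1, Col4a3, Col4a4, Col6a4, Col10a1, Col13a1, Col25a1, Col26a1 and Col28a1) had at most 12 counts in any library, and 3 counts correspond to 0.159 to 0.194 CPM per library. Col28a1 had 0 counts in all 3 control libraries.

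Ratios of chains that assemble together were taken within each library, where they do not depend on scaling. The type I ratio of Col1a1 to Col1a2 FPKM was 2.26 ± 0.0671 (SD, n = 3) in control, 2.38 ± 0.114 in thrombin and 2.37 ± 0.0258 in PD03. Control reached 2.19 to 2.31 and thrombin 2.28 to 2.50, so these overlapped, while the type I trimer itself holds a pair of α1 chains and a single α2 chain. Type V was tilted towards Col5a1 in both treated groups, with Col5a1 to Col5a2 at 0.757 ± 0.0119 in control, 0.838 ± 0.0209 in thrombin and 0.837 ± 0.0246 in PD03, and no treated library overlapped control. Measured against type I, Col5a1 to Col1a1 was 0.0465 ± 0.000894, 0.0595 ± 0.00206 and 0.0466 ± 0.000508, so the thrombin libraries alone were higher. Col6a1 to Col6a2 was 1.22 ± 0.0241 in control, 1.06 ± 0.0260 in thrombin and 1.24 ± 0.0239 in PD03. Col6a3 to Col6a2 was 0.182 ± 0.00587, 0.173 ± 0.00137 and 0.126 ± 0.00911, lowest in all PD03 libraries. Col8a1 to Col8a2 was 1.52 ± 0.0809 in control, 1.84 ± 0.0484 in thrombin and 0.897 ± 0.101 in PD03. Col4a1 to Col4a2 was 1.44 ± 0.0350, 1.44 ± 0.0117 and 1.28 ± 0.0282, and Col4a5 to Col4a6 was 15.6 ± 1.84, 22.7 ± 1.79 and 15.6 ± 1.63. The ratio of Col9a1 to Col9a2 was 0.42 ± 0.0406 in control, 0.663 ± 0.0421 in thrombin and 1.05 ± 0.266 in PD03, without overlap, although both are scarce. These ratios were described and not tested.

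**Figure D4:**
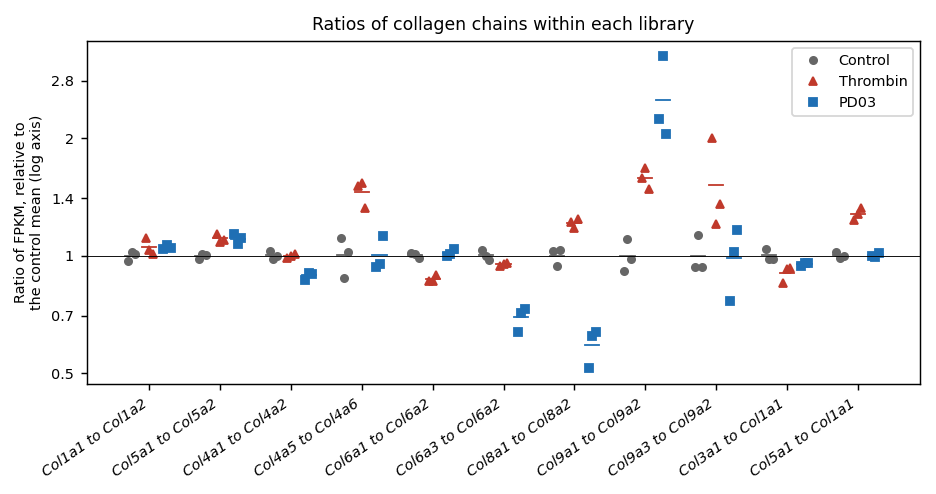
Ratio of the FPKM of chain pairs in each library, divided by the control mean of that pair, on a log axis; each point is 1 library. Col8a1 to Col8a2 is below the control mean in all PD03 libraries and above it in all thrombin libraries, and Col1a1 to Col1a2 stays close to it throughout.

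Genes that modify, process, cross-link, bind and degrade collagen were counted from lists drawn up with earlier results of these data known. Of the 18 genes of procollagen modification and folding, 17 were tested. Thrombin raised Plod2, a lysyl hydroxylase, from 207 ± 3.72 to 378 ± 2.67 CPM (log2 fold change 0.87 ± 0.04, adjusted p = 1.8e-22) and P3h2, a prolyl 3-hydroxylase, from 1.36 ± 0.385 to 3.04 ± 0.641 CPM, and none was called lower by edgeR or DESeq2, although 5 were lower without the fold threshold and 12 of the 17 had an unadjusted p under 0.05. PD03 against thrombin raised Serpinh1, the collagen chaperone HSP47, at 0.60 ± 0.03, and lowered P3h2 at -2.25 ± 0.32, while against control P3h4 was higher (0.61 ± 0.04) and P3h2 lower. The median log2 fold change of the list was 0.05, 0.37 and 0.39 in the 3 comparisons. With no fold threshold 15 of the 17 were higher in PD03 against thrombin. Over all 13256 tested genes, that setting called 3808 with thrombin against control and 6608 in PD03 against thrombin, in either direction. For the unadjusted p, here and in the lists below, no share over all tested genes is given, so those counts are not read as results about a list. The Serpinh1 call lay near the threshold and was lost without PD03 replicate 1 and with library totals, while without PD03 replicate 3 the count became 2. The P3h4 call was lost with library totals. The P3h2 call against control was lost without Control replicate 1.

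In the secretion and processing list (13 listed, 11 tested), none was called with thrombin by edgeR or DESeq2, while 4 were higher and 4 lower without the fold threshold and 8 had an unadjusted p under 0.05. Without the fold threshold, 3808 of all 13256 tested genes were called with thrombin, so these counts are not read as a result about the list. PD03 against thrombin raised Bmp1, the procollagen C-proteinase (168 ± 7.94 to 273 ± 5.95 CPM, 0.70 ± 0.04), and the N-proteinases Adamts2 (0.66 ± 0.04) and Adamts14 (0.79 ± 0.06). Against control Creb3l1, a transcription factor of the secretory pathway, and Tll1 were higher, at 0.59 ± 0.04 and 0.63 ± 0.10. Neither was called with library totals, and the count of 2 became 1 without Control replicate 1 and without PD03 replicate 1. In PD03 against thrombin, 0 were called lower, and this count became 1 without Control replicate 2, Control replicate 3, Thrombin replicate 1, PD03 replicate 1 or PD03 replicate 2. The 0 called higher with thrombin became 1 without Control replicate 2. The list medians were -0.04, 0.20 and 0.26.

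Of the 5 lysyl oxidase genes, which cross-link collagen, Loxl2 was called in PD03 against control (324 ± 8.40 to 566 ± 15.9 CPM, 0.81 ± 0.04, adjusted p = 2.5e-22). No other was called in any comparison by edgeR or DESeq2, although 5 of the 5 had an unadjusted p under 0.05 with thrombin and 4 in PD03 against thrombin. Without the fold threshold, 2 were higher and 1 lower with thrombin, and 2 higher and 2 lower in PD03 against thrombin. That setting called 3808 and 6608 of all 13256 tested genes in these comparisons, so the counts are not read as a result about the list. Lox was at 0.47 ± 0.03 with thrombin, under the fold threshold. Collagen receptors (10 listed, 7 tested) moved in both directions: PD03 against thrombin raised Ddr1 (57.9 ± 3.30 to 147 ± 4.14 CPM, 1.35 ± 0.05), Itga11 (0.70 ± 0.03) and Itga1 (0.62 ± 0.07) and lowered Itga2 (-1.47 ± 0.16) and Adgrg1 (-1.44 ± 0.16). Ddr1 and the integrin chains Itga1, Itga2 and Itga11 bind collagen directly. Thrombin against control raised Adgrg1 (1.02 ± 0.15), and PD03 against control raised Ddr1 and Itga11 and lowered Itga2. The 3 higher in PD03 against thrombin became 2 without Thrombin replicate 3 or PD03 replicate 2, and 1 receptor was called lower with thrombin without Thrombin replicate 1. Among 6 tested genes of collagen breakdown, the gelatinase Mmp9 rose with thrombin from 14.6 ± 1.01 to 30.9 ± 2.34 CPM (1.09 ± 0.09) and fell with PD03 against thrombin (-1.28 ± 0.09). The collagenase Mmp13 was lower at each step, at 12.3 ± 3.19, 6.62 ± 0.421 and 3.72 ± 0.148 CPM in control, thrombin and PD03. Cathepsin K (Ctsk) was higher in PD03 against thrombin (0.79 ± 0.05) and Mmp14 in PD03 against control (0.69 ± 0.03), a call lost with library totals.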

How the data were processed

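The authors sequenced polyA RNA from 9 libraries and deposited, per gene and library, raw read counts and FPKM. The deposited FPKM values equal the count divided by a gene length and the library total. The sources differ on how the counts were made, as the paper names featureCounts and an older rat genome, while the submitters' processing notes name mRatBN7.2, HISAT2 and HTSeq 0.13.5. Annotation release and strandedness are not stated, so reads of an overlapping antisense gene could not be separated.

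Counts were tested with edgeR 4.0.16 in R 4.3.3. Genes were kept by filterByExpr (minimum count 10), libraries were scaled by TMM (factors 0.949 to 1.04), and a single quasi-likelihood model was fitted to the 9 libraries. Benjamini-Hochberg adjustment covered all 13256 tested genes, and the thresholds (adjusted p 0.05, log2 fold change 0.58) follow the study. Standard errors and 95% intervals come from that model. FPKM served to compare levels between genes. The biological coefficient of variation was 4.28%. Chi-square per degree of freedom between replicates was 1.82 to 3.99, so no library was merged with another. The procedure was also run on data simulated with the spread estimated from these libraries. The outcome of that run is not reported here and is not used as support. Figures were drawn with matplotlib 3.10.9.

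Members, classes, chain pairs and lists were chosen with earlier results of these data known. Values in every library are given for members called in at least 1 comparison and for Col5a2, and other members by range, counts or interval. Alternatives were other scalings (RLE, library totals, collagens left out), other filters, DESeq2 1.42.0, limma 3.58.1 (voom, and FPKM with 1 or 0.1 added), other fold thresholds, a replicate block, chain ratios from raw counts without length, and the removal of 1 library at a time. Col21a1 was not analysed here.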

Additional observations from a re-analysis of the deposited data

How the results depend on the processing

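RLE scaling, scaling without the collagens, DESeq2, limma voom and the replicate block gave the same collagen calls in the 3 comparisons as reported. The replicate block gave 1 higher and 6 lower for thrombin relative to control, 13 and 4 for PD03 relative to thrombin, and 6 and 3 for PD03 relative to control. Deviations from the group mean, over all tested genes, correlated at -0.046 to 0.052 for same-numbered libraries and -0.056 to 0.055 for others. These values gave no sign of pairing by number. With 3 libraries per group they cannot exclude that same-numbered libraries shared an animal or a preparation. With the fold threshold dropped, the counts in that order were 5 and 16, 19 and 7, and 15 and 11. Over all 13256 tested genes, that setting called 3808, 6608 and 5289 in either direction. With the fold threshold raised to 1, 2 collagens were lower with thrombin, 5 were higher in PD03 relative to thrombin, and 1 was higher and 1 lower relative to control. Requiring a mean count of at least 50 left 27 collagens tested, and the calls of Col11a2 and Col23a1 were lost. Testing against the threshold itself (glmTreat) left 4 lower with thrombin, without Col9a2 and Col4a6. It left 3 lower in PD03 relative to thrombin, without Col23a1, and 2 higher and 2 lower in PD03 relative to control. Library totals gave 3 higher and 5 lower there, FPKM with 0.1 added 3 and 5, and FPKM with 1 added 2 higher, with 3 lower for thrombin relative to control. Dropping the filter gave 2 higher with thrombin.

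Leaving out each library in turn gave 1 to 2 higher and 6 lower with thrombin, 13 higher and 4 to 5 lower in PD03 relative to thrombin, and 3 to 7 higher and 2 to 4 lower in PD03 relative to control. The low value of 3 came without Control replicate 1. No value that was called changed sign, but uncalled values near 0 did. In these ranges over 9 omissions, thrombin relative to control ran from -0.11 to 0.24 for Col20a1, -0.01 to 0.32 for Col17a1 and -0.05 to 0.17 for Col24a1. PD03 relative to thrombin ran from -0.30 to 0.10 for Col20a1, -0.11 to 0.17 for Col17a1, -0.05 to 0.02 for Col5a3 and -0.66 to 0.53 for Col6a6. PD03 relative to control ran from -0.02 to 0.30 for Col11a2 and -0.22 to 0.19 for Col20a1. Col17a1 in PD03 relative to thrombin was also -0.06 with library totals, -0.01 with FPKM plus 1 and -0.04 with FPKM plus 0.1, and Col6a6 was -0.04 with library totals, -0.18 with voom and -0.01 with FPKM plus 0.1. The cause of these shifts was not tested.

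Rescaled by the TMM factors, summed FPKM was 22223 for fibrillar chains in PD03, 462 for fibril-associated chains in control, and 24631 for all collagens in PD03. In control, thrombin and PD03 it was 720.2, 687 and 587 for basement membrane chains, 473, 316 and 613 for beaded filaments, 203, 194 and 229 for short-chain networks, and 57.9, 52.5 and 39.6 for multiplexins. The order of the groups was as before in each of these 4 classes. The 11 collagens that failed the filter were all tested with the filter dropped, which called Col6a5 and Col19a1. With 1 library left out, the filter was applied anew and 34 or 35 collagens were tested, Col6a5 among them where it was called. From raw counts without length, the ratio of Col8a1 to Col8a2 in control was 0.911 in place of 1.52.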
